A study of Homo sapiens with 4 samples.

Results

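Glutathione peroxidases and transferases, with the enzymes that make and recycle glutathione, were followed through 10 genes in 2 human cancer cell lines. The genes were GPX1, GPX2, GPX3, GPX4, GPX8, GSR, GSS, GSTP1, GSTM3 and MGST1, taken by their gene name on the array out of 43317 names in all, and each was found. They were measured by 14 probes on 32 spots per array. HCT116, a colorectal cancer line, and A549, a lung cancer line, received either miR-891b, a microRNA, or the negative control NC1, in both cases with the reagent Dharmafect1. The series, by its title, concerns PSAT1, the release of extracellular vesicles and bone metastasis. The 4 groups, control and miR-891b cells of each line, have 1 array each, so no difference within a line has a replicate check. The lines were grown in different media, and each line has a slide and a scan of its own, so line, medium, slide and scan cannot be told apart. NC1 and miR-891b were compared within a slide. In these bulk samples, fewer cells that express a gene and less RNA per cell cannot be told apart.

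Glutathione is a small peptide that cells use to detoxify peroxides and reactive chemicals. Glutathione peroxidases reduce hydrogen peroxide or lipid peroxides at its expense, and most of them carry the amino acid selenocysteine in the active site. Glutathione reductase turns the oxidised form back with NADPH, and glutathione transferases attach glutathione to reactive compounds, including drugs, so that they can be exported.

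The transfected agent is shown here because all differences within a line refer to it. The RefSeq mature sequence of miR-891b (22 bases) has its seed, bases 2 to 8, in capitals. The DNA letters that pair with the seed, AAGTTGC, were in 0 of the 14 probes and in 229 of all 58201 probes, each of which covers 60 bases.
hsa-miR-891b: uGCAACUUaccugagucauuga

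Levels below are log2 signals relative to the 75th percentile of the same array. On each array, between 26010 and 29258 of the 58201 gene probes were well above background, which is the mark that the scanner software sets for a signal clearly over its local surroundings, and no gene spot was saturated. Of the line markers, 6 of 6 A549 markers and 4 of 5 HCT116 markers differed by 2-fold or more in the labelled direction on both pairs of arrays. The exception was CDH1, with an A549 minus HCT116 difference of -0.24 on the NC1 arrays and its probe in an area of stray signal. With miR-891b, the A549 marker AKR1B10 was 22.2-fold higher in HCT116, and KRT81 (-1.64) and ALDH3A1 (-1.17) were lower in A549, with both of these probes in areas of stray signal. The HCT116 marker CLDN3 was higher in A549 (1.03), and the summed level of the A549 markers in A549 was 3168 with NC1 and 2201 with miR-891b. Fibroblast markers were looked at because the growth protocol also names fibroblast lines. COL1A1 was well above background on all 4 arrays, LUM and THY1 were so in A549, and COL1A2, COL3A1 and DCN were not on any array. The probes of 7 members were well above background on all 4 arrays. GPX2, GPX3 and GSTM3 were so on the A549 arrays only.

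**Figure D1:**
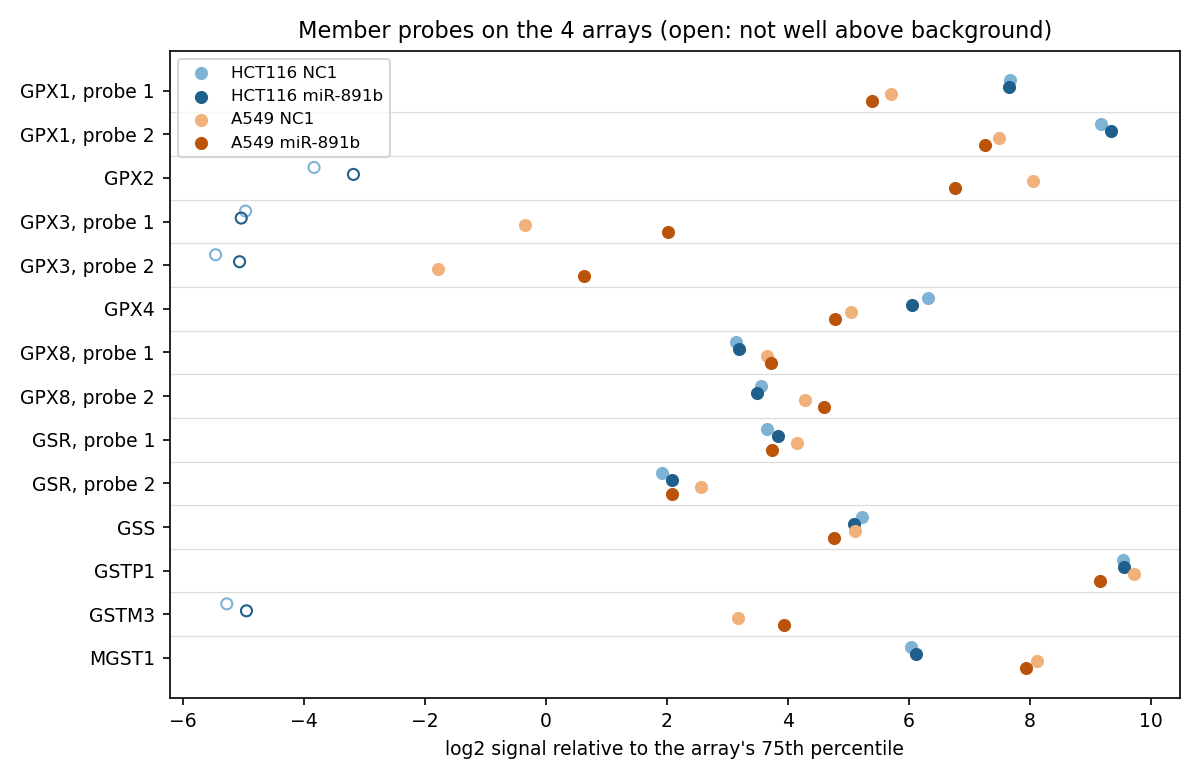
Level of each member probe on the 4 arrays, as log2 signal relative to the 75th percentile of the array, with 1 point per array and open points for probes not well above background. GPX2, GPX3 and GSTM3 have open points on both HCT116 arrays and filled points on both A549 arrays.

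The first comparison asked how the lines differed. In a model with terms for line and transfection, 6 of the 10 members passed for the line. GPX2, GPX3, GSTM3 and MGST1 were higher in A549, and GPX1 and GPX4 were higher in HCT116. GPX8, GSR, GSS and GSTP1 did not pass. Of all 22711 genes tested, 31.9% passed, 15.5% as higher in A549 and 16.4% as lower. GPX2, GPX3 and GSTM3 entered this fit through their A549 arrays alone and so had to differ. Their passing is therefore no result, and bounds are given for them in place of fitted differences. GPX3 no longer passed under normexp background correction with quantile normalization (limma adjusted p = 0.108). The model was fitted with limma on 4 arrays, with 1 residual degree of freedom and Benjamini-Hochberg adjustment at 0.05, and every adjusted p below for the line comes from it. With 1 array per group, its error for a gene comes from how far the miR-891b difference departs between the lines, drawn toward that of all genes. It is not a spread between repeat arrays. Nothing in the labels says how many cultures the arrays came from.

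By size on the NC1 arrays, the same 6 members were past 2-fold, 4 higher and 2 lower in A549, against 31.8% of 23781 genes (14.2% higher and 17.6% lower). On the miR-891b arrays, 7 members were past 2-fold, against 36.4% of 24000 genes (14.1% higher and 22.4% lower), and GPX8 was the additional one. GPX2, GPX3 and GSTM3 entered both counts through their A549 arrays alone and could only be higher there. The counts are therefore no result for these genes. The measured differences past 2-fold on both pairs were those of GPX1, GPX4 and MGST1. The median A549 minus HCT116 difference over the 10 members was 0.61 on the NC1 arrays, with genes below background at their bound. That over all genes was -0.015. On the miR-891b arrays these medians were 0.50, with 5 members above and 5 below 0, and -0.056. GPX2, GPX3 and GSTM3 could not fall below 0 here, so the member medians are no result either.

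GPX1, the abundant peroxidase of the cytosol and mitochondria, was lower in A549. Its probe at chr3:49394608-49394667 (hg19, as all probe positions here) read 9.17 (NC1) and 9.34 (miR-891b) in HCT116 and 7.50 (NC1) and 7.26 (miR-891b) in A549. Both HCT116 arrays were thus above both A549 arrays. The A549 minus HCT116 difference was -1.67 on the NC1 arrays, a 3.19-fold lower signal, and -2.08 on the miR-891b arrays. The fitted line difference was -1.88 ± 0.25 (SE, 4 arrays; limma adjusted p = 0.0109). Its other probe, at chr3:49394925-49394984, gave -1.96 and -2.27 for the same differences.

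GPX4 reduces lipid peroxides within membranes and is the central enzyme that holds back ferroptosis, a form of cell death driven by lipid peroxidation. Its level was 6.32 (NC1) and 6.05 (miR-891b) in HCT116 and 5.05 (NC1) and 4.78 (miR-891b) in A549, by the probe at chr19:1105673-1105732. The groups of the lines did not overlap. The difference was -1.27 on either pair of arrays, and the fitted line difference was -1.27 ± 0.23 (SE; limma adjusted p = 0.0229).

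GPX2, the selenocysteine peroxidase known from the epithelium of the gut, was read in the lung line and not in the colorectal line. Its probe at chr14:65406396-65406455 had processed signals in HCT116 of 3.85 with NC1 and 6.27 with miR-891b, neither well above background. The A549 signals were 19754 with NC1 and 8024 with miR-891b. With the lowest signal well above background or the probe's own signal on the dim array, whichever was higher, taken as the bound, GPX2 was at least 3089-fold higher in A549 on the NC1 arrays. The bound was at least 950.0-fold on the miR-891b arrays. By this bound it ranked 6 of 23781 genes in A549 excess on the NC1 arrays. The bound depended on the processing. On the log2 scale it was 11.59 on the NC1 arrays, and 8.15 under normexp background correction with quantile normalization.

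GPX3, the peroxidase that is secreted into plasma, was also read in A549 alone. Its probe at chr5:150407859-150407918 gave processed signals of 1.75 (NC1) and 1.73 (miR-891b) in HCT116 and 58.7 (NC1) and 299.0 (miR-891b) in A549. The HCT116 signals were not well above background, and the higher A549 signal was that with miR-891b. GPX3 was at least 9.17-fold higher in A549 on the NC1 arrays and at least 35.4-fold higher on the miR-891b arrays. The other probe, at chr5:150407032-150407091, gave at least 3.39-fold and at least 13.6-fold. On the log2 scale the NC1 bound of the first probe was 3.20. Under normexp background correction with quantile normalization it was 0.90, short of 2-fold.

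GPX8, a peroxidase of the endoplasmic reticulum membrane with a cysteine in place of selenocysteine, was the peroxidase nearest to the limit. Its probe at chr5:54463052-54463111 read 3.56 (NC1) and 3.49 (miR-891b) in HCT116 and 4.28 (NC1) and 4.60 (miR-891b) in A549. The fitted line difference was 0.92 ± 0.25 (SE; limma adjusted p = 0.0573), and adjusted p-values under alternative settings ran from 0.0373 to 0.102. The other probe, at chr5:54460254-54460313, gave a difference of 0.52 on both pairs of arrays.

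Among the transferases, MGST1, a membrane-bound enzyme of the endoplasmic reticulum and the outer mitochondrial membrane, had levels of 6.03 (NC1) and 6.11 (miR-891b) in HCT116 and 8.12 (NC1) and 7.94 (miR-891b) in A549. Its probe lay at chr12:16516907-16516966. The A549 arrays were above the HCT116 arrays by 4.28-fold with NC1 and 3.54-fold with miR-891b, and the fitted difference was 1.96 ± 0.24 (SE; limma adjusted p = 0.00858).

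GSTM3, a transferase of the mu class, was printed at 10 spots of each array with the probe at chr1:110279614-110279673. None of the 10 spots was well above background on either HCT116 array, where the mean signals were 1.48 ± 0.48 (SD, n = 10 spots) with NC1 and 1.93 ± 0.67 with miR-891b. All 10 were well above background in A549, with 676 ± 31.3 for NC1 and 1141 ± 28.1 for miR-891b. GSTM3 was at least 106-fold higher in A549 on the NC1 arrays and at least 135-fold higher on the miR-891b arrays. By its bound it ranked 100 of 23781 genes in A549 excess on the NC1 arrays. On the log2 scale this bound was 6.72, and 3.45 under normexp background correction with quantile normalization.

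GSTP1, the pi-class transferase that conjugates many drugs, had no settled direction between the lines. Its 10 spots per array (chr11:67354050-67354109) gave an A549 minus HCT116 difference of 0.17 ± 0.035 (SD over spots) on the NC1 arrays and -0.39 ± 0.054 on the miR-891b arrays. All 10 spots had the same sign within each pair of arrays. The fitted line difference was -0.11 ± 0.27 (SE; limma adjusted p = 0.782), and it became 0.50 under quantile normalization (limma adjusted p = 0.194) and 0.50 under normexp with quantile normalization (limma adjusted p = 0.0873).

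GSR, the reductase that regenerates glutathione, did not pass either. Its probe with the higher signal read 3.66 (NC1) and 3.83 (miR-891b) in HCT116 and 4.15 (NC1) and 3.73 (miR-891b) in A549. The A549 minus HCT116 difference was 0.49 with NC1 and -0.11 with miR-891b, and the fitted value was 0.19 ± 0.27 (SE; limma adjusted p = 0.618). The other GSR probe gave 0.65 and 0.0098.

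GSS, the synthetase that adds glycine in the last step of glutathione synthesis, read 5.22 (NC1) and 5.09 (miR-891b) in HCT116 and 5.10 (NC1) and 4.76 (miR-891b) in A549, by the probe at chr20:33516382-33516441. Its fitted line difference was -0.23 ± 0.24 (SE; limma adjusted p = 0.499).

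**Figure D2:**
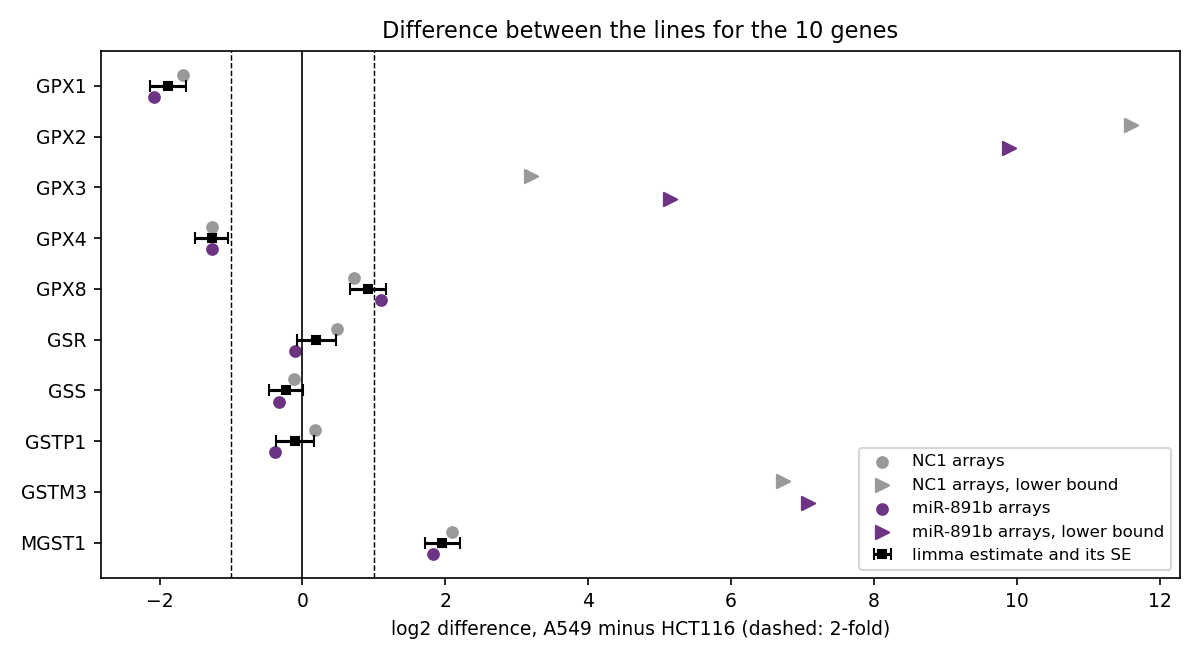
A549 minus HCT116 log2 difference of each gene on the NC1 arrays and on the miR-891b arrays (circles), with the limma estimate and its SE over 4 arrays (squares and bars) and dashed lines at 2-fold. Triangles are lower bounds for genes not well above background in HCT116, which have no estimate drawn. GPX2, GSTM3 and GPX3 lie farthest to the right, GPX1 and GPX4 lie left of the dashed line, and the points of GSR and GSTP1 fall on both sides of 0. The estimate of GSTP1 turned to 0.50 under quantile normalization.

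The promoters of GPX2 and GSTP1 are printed because they held the letters of the antioxidant response element, a sequence known to be bound by the factor NRF2. Both genes had lower signals with miR-891b in A549, where 7 of 10 members and 55.6% of all genes were below 0. GPX1, GPX4 and MGST1 were among the lower members, and their promoters held 0 such matches. Under quantile normalization the A549 values of these 3 genes were 0.24, 0.00061 and 0.24, and so not lower. A link between the letters and the signals was not tested. The letters searched were TGACNNNGC (GCNNNGTCA on the opposite strand) in the 250 bases before the start site, in RefSeq sequences of GRCh38.p14. The 8 members matched to a promoter entry have 12 promoters in the table, and 2 of these held the letters (16.7%), against 10.9% of 35116 promoters of that length. In GPX2 the match, GCTAAGTCA, lay on the opposite strand, 122 to 114 bases before the start. In GSTP1 it was TGACTCAGC, 66 to 58 bases before the start, and it overlaps the AP-1 letters TGANTCA, which 6.57% of promoters held. The windows are chr14:64942746-64942995 (minus strand) for GPX2 and chr11:67583562-67583811 (plus strand) for GSTP1, both on GRCh38.p14, with matches in capitals.
GPX2: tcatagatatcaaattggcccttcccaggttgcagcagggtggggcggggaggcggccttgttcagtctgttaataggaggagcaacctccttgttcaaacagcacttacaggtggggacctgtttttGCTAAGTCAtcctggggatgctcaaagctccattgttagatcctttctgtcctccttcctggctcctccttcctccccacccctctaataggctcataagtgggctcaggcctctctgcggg
GSTP1: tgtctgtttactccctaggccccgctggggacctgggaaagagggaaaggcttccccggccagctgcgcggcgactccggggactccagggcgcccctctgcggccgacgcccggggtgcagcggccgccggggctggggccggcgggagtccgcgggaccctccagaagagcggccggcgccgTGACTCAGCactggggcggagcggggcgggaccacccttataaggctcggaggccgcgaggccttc
These matches describe letters only, and binding was not measured. GPX2 had 3 CpG dinucleotides in this window and GSTP1 had 28, against a median of 11 over all promoters.

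The next comparison asked how the members differed between miR-891b and NC1 in each line. In A549, GPX3 was higher with miR-891b and GPX2 was lower, both past 2-fold. This made 2 of 10 members, against 9.58% of 21336 genes (4.0% higher and 5.57% lower). In HCT116, 0 of the 7 measured members were past 2-fold, against 2.0% of 19105 genes (1.16% higher and 0.843% lower), and all 7 lay between -0.27 and 0.18. The median over members was 0.0043 in HCT116 and -0.25 in A549, and the medians over all genes were -0.041 and -0.059. Differences are miR-891b minus NC1. A spot-level spread was taken from probes printed at 5 or more spots, where the median SD of a log2 difference was 0.061 in HCT116 and 0.071 in A549. It covers neither cultures nor labelling.

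With the lines as the only repeat of the transfection, the same limma model called 0 of 22711 genes (0.0%) for miR-891b at a Benjamini-Hochberg adjusted p under 0.05. The smallest adjusted p was 0.793, and 1214 genes had an unadjusted p under 0.05. The members with the lowest unadjusted p from limma were GSTM3 (0.0959) and GPX3 (0.144), and both had an adjusted p of 0.793. Their HCT116 values, which enter this term, were not well above background.

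GPX3 had the largest difference among the members. On A549, its levels were -0.35 with NC1 and 2.01 with miR-891b, a difference of 2.36 or 5.13-fold. The other GPX3 probe read -1.79 and 0.63, a difference of 2.42 or 5.35-fold. GPX3 ranked 60 of 21336 A549 genes from the highest difference. Its spots were outside the areas of stray signal, where dim probes read high together. LUM, which had been listed as a fibroblast marker, was also higher with miR-891b in A549 (2.14), while THY1 was lower (-1.04). COL1A1 also read lower (-0.59). The summed level of the 6 fibroblast markers was 3.99 in A549 with NC1 and 10.3 with miR-891b, with LUM the marker that was higher, and their part in the GPX3 difference was not tested.

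GPX2 on A549 read 8.05 with NC1 and 6.76 with miR-891b, a difference of -1.29 or a 2.44-fold lower signal. It ranked 614 of 21336 genes from the lowest difference. Normexp background correction with quantile normalization brought it to -0.96 and so below 2-fold.

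GSTM3 was higher with miR-891b in A549 on each of its 10 spots. The signals did not overlap, with 649 to 724 for NC1 and 1097 to 1171 for miR-891b. The mean difference was 0.77 ± 0.063 (SD over spots), which is 1.70-fold. Without the 3 spots in areas of stray signal it was 0.76, a setting chosen after seeing the data.

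GSTP1 was lower with miR-891b in A549 on each of its 10 spots. The processed signals ran from 59727 to 68044 with NC1 and from 40214 to 45295 with miR-891b, without overlap. The mean difference was -0.56 ± 0.044 (SD over spots), a 1.47-fold lower signal. In HCT116 the spots ran from 39732 to 42604 and from 40590 to 44285, which overlap, and the mean difference was 0.0043 ± 0.036. The spots repeat the array reading and not the culture. Normexp with quantile normalization brought the A549 difference to -0.18.

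**Figure D3:**
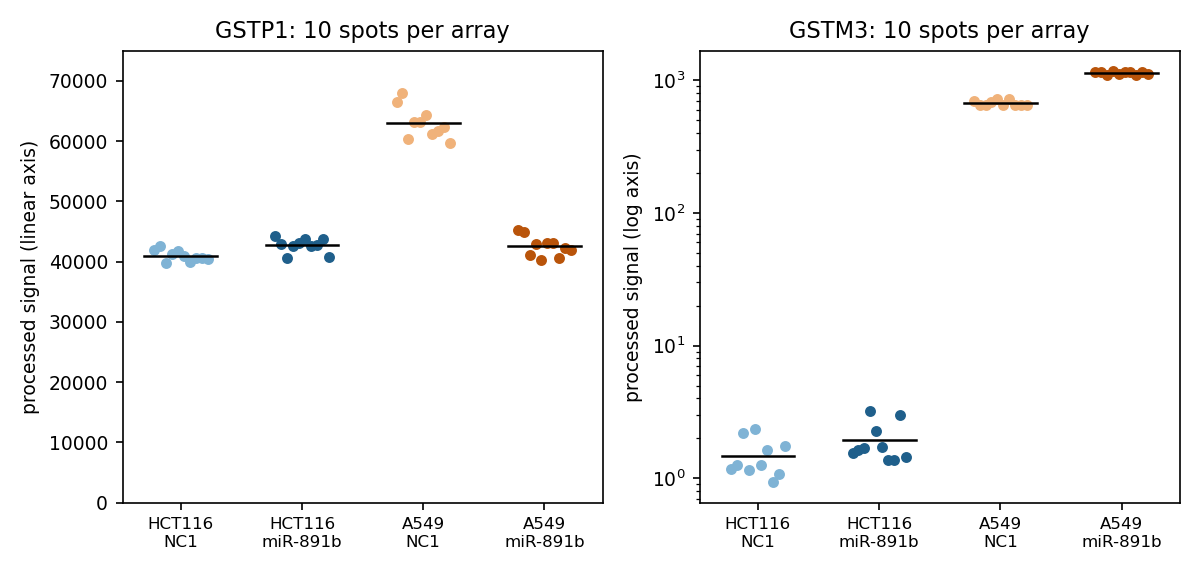
Processed signal of the 10 GSTP1 spots (linear axis) and the 10 GSTM3 spots (log axis) on each array, with lines at the means; the signals are not scaled between arrays. The A549 spots of both genes separate by transfection, and the HCT116 spots of GSTM3 are below 4 units.

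The recycling and synthesis enzymes were both lower with miR-891b in A549, short of 2-fold. GSR differed by -0.42 and -0.48 on its probes, and GSS differed by -0.34. The GSS value came to -0.079 under quantile normalization and -0.072 under normexp with quantile normalization, close to the spot-level spread of 0.071. In HCT116 the GSR probes gave 0.18 and 0.16, and GSS gave -0.13.

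GPX4 differed by -0.27 in each line, although quantile normalization brought the A549 value to 0.00061. GPX1 differed by -0.23 and -0.32 on its probes in A549, but quantile normalization brought the gene's value to 0.24 and normexp with quantile normalization to 0.25. In HCT116 the GPX1 probes gave 0.18 and -0.013. MGST1 differed by -0.19 in A549, which became 0.24 and 0.28 under the same 2 settings, and by 0.083 in HCT116. GPX8 differed by 0.31 and 0.062 on its probes in A549 and by -0.065 and 0.058 in HCT116. The HCT116 values of GPX8 are within the spot-level spread or close to it.

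**Figure D4:**
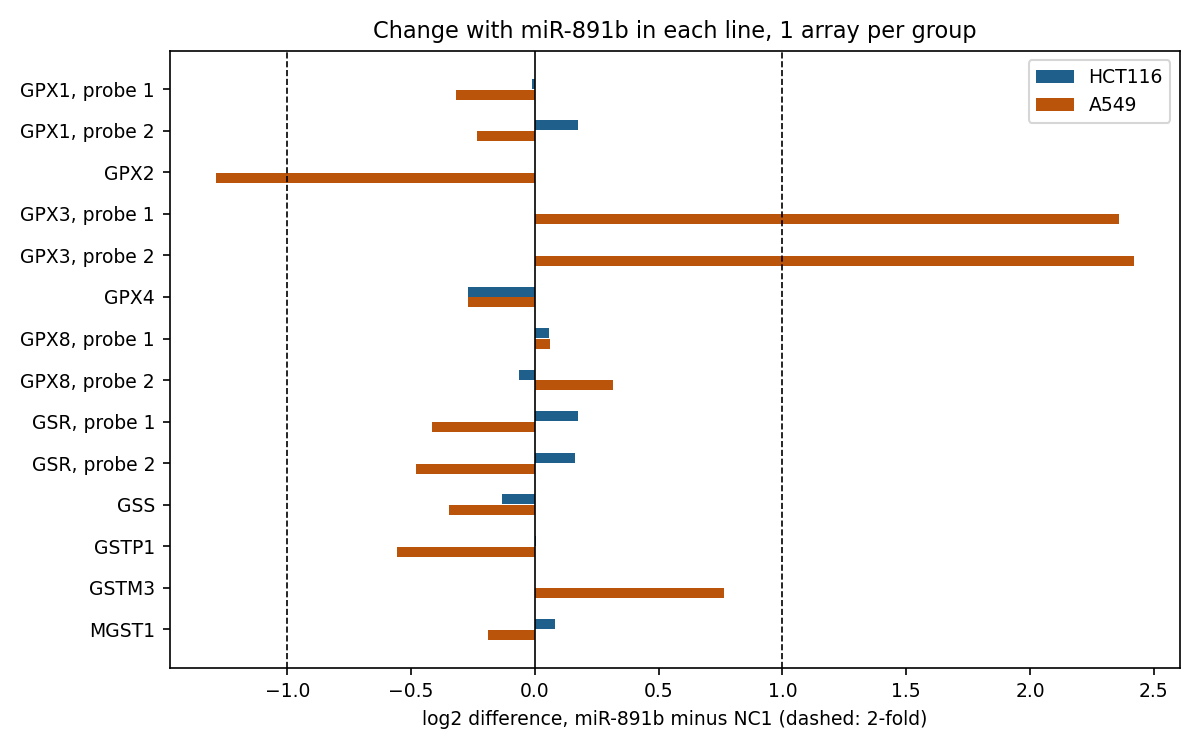
Difference between miR-891b and NC1 on the log2 scale for each member probe, with HCT116 in blue and A549 in orange, 1 array per group, drawn only where both arrays were well above background. GPX3 passes the dashed 2-fold line to the right on both probes, GPX2 passes it to the left, and every HCT116 bar stays within 0.27 of 0.

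**Figure D5:**
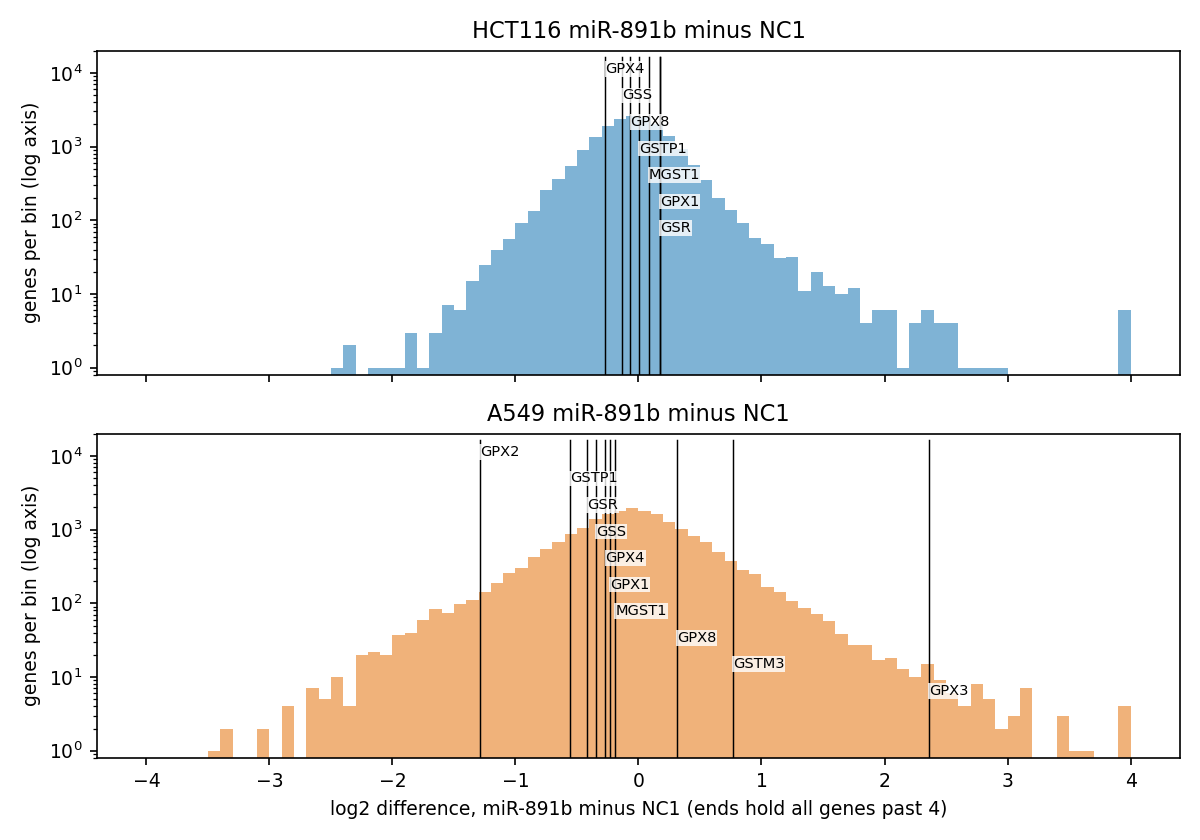
Number of genes by their log2 difference between miR-891b and NC1 in HCT116 (19105 genes) and A549 (21336 genes), on a log axis in bins of 0.1, with lines at the members. The HCT116 members lie near the centre, while GPX3 lies in the right tail in A549 and GPX2 lies toward the left one.

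The other genes of the pathway were taken from lists of related enzymes. Of 23 further transferases and related membrane proteins, 22 were found on the array. On the NC1 arrays, 3 of 19 measured were past 2-fold higher in A549 and 4 were lower (15.8% and 21.1%, near the 14.2% and 17.6% of all genes). GSTA4, which acts on lipid aldehydes, was higher by 3.20, and MGST2 was higher by 1.63. The MGST2 probe lay in an area of stray signal on an array. GSTT2 and GSTT2B, near-identical copies whose probes may not tell them apart, were not well above background in A549 and were at least 281-fold and at least 123-fold higher in HCT116. The GSTT2 spot lay in an area of stray signal on an array. With miR-891b in A549, 2 of 15 were past 2-fold, against 9.58% of all genes. They were GSTA5 (2.86) and GSTA2 (2.60), close relatives whose probes may not tell them apart either. Of the 17 measured in HCT116, 0 were past 2-fold, against 2.0% of all genes.

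Of 16 genes of glutathione synthesis and breakdown, 15 were measured on the NC1 arrays, with 6 past 2-fold higher in A549 (against 14.2% of all genes) and 4 lower (against 17.6%). The higher ones included GCLC (1.55) and GCLM (1.41), the subunits of the enzyme of the first step, and SLC7A11 (1.71), the cystine importer. CBS had the largest excess (4.89), followed by ANPEP (1.97). CHAC1, which degrades glutathione, had the largest deficit (-3.04), followed by DPEP1, which was not well above background in A549 and at least 5.54-fold higher in HCT116. On the miR-891b arrays, 4 of 16 measured were past 2-fold higher in A549 and 4 were lower, against 14.1% and 22.4% of all genes. GCLC (0.84) and ANPEP (0.43) were not past 2-fold there. With miR-891b, CHAC1 was past 2-fold in HCT116 (-1.54), where 2.0% of all genes were. Of the 14 measured in A549, 0 were, against 9.58% of all genes. GSS, in the same pathway, differed by -0.12 between the lines on the NC1 arrays. The genes named here were picked for being past 2-fold. The rest of the 15 measured were, like GSS, short of it on those arrays, so GSS is not set apart.

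Of 9 genes of conjugate export and glyoxalases, ABCC3 (3.81) and ABCC4 (1.91) were past 2-fold higher in A549 on the NC1 arrays and 0 were lower (22.2%, against 31.8% of all genes in either direction). On the miR-891b arrays, 4 of the 9 were higher and 2 were lower (66.7%, against 36.4% of all genes), so this share depended on the pair of arrays. Selenoprotein synthesis, on which GPX1, GPX2, GPX3 and GPX4 depend, had 9 measured genes. Between the lines, 0 of the 9 were past 2-fold on the NC1 arrays, against 31.8% of all genes. On the miR-891b arrays 1 was, higher in A549, against 36.4% of all genes in either direction. With miR-891b, 0 of the 9 were past 2-fold in either line, against 2.0% of all genes in HCT116 and 9.58% in A549. So few genes say little at these shares. Of the other peroxidases, GPX5 alone was well above background, with an A549 minus HCT116 difference of -0.098, and GPX6 and GPX7 were not on any array. GPX5 was dim, with levels from -3.33 to -2.86, and its probe lay in an area of stray signal on an array.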

How the data were processed

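Total RNA of the 4 samples, 100 ng each, was labelled with Cy3 for Agilent 1-colour arrays, per the labels. Per the file headers, Feature Extraction 11.5.1.1 quantified the scans, subtracted a background and removed trends within each array. The deposited scanner files hold these intensity values, unscaled across arrays. The authors also deposited log2 values, and how these were made is not given in the sources used here. They differed from the main values below by a median of 0.0069 or less per array, with column medians from -3.80 to -3.60.

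After removal of outlier-marked spots, log2 processed signals were averaged per probe and each array's 75th percentile was subtracted. The brightest probe by mean level stands for a gene. Within a line, a gene had to be well above background on both arrays, and between the lines on at least 1 of the pair. The limma fit (limma 3.58.1, R 4.3.3, lmFit and eBayes) took genes detected on 2 or more of the 4 arrays. Groups of 1 array were compared by size, with a call at 2-fold or more. An area of stray signal is one where at least 10% of the spots within 10 rows and columns that are dim on the other arrays are well above background. Other values came from Python 3.11.15 with pandas 2.3.3.

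The members, the gene lists and the settings were chosen with earlier results of these data known. Named genes were the 10 members, and from each list those past 2-fold with miR-891b and the 2 highest and 2 lowest between the lines on the NC1 arrays, with GCLC, GCLM, SLC7A11, SRXN1, the marker genes, GPX5, GPX6 and GPX7 added after their values were seen. The fit was tested on simulated data for the cell line term, with 40 genes changed at each size. It called 0 changed 2-fold, 4 changed 4-fold, 24 changed 8-fold, 39 changed 16-fold and 38 changed 64-fold. Of its 105 calls, 13 were unchanged genes. Only 200 of 22711 genes were changed there, while 7249 were called in the data, so these recovery rates need not hold for the data. Whether probes bind related transcripts was not analysed here, nor were exons and untranslated parts.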

Additional observations from a re-analysis of the deposited data

Results flagged for a closer look

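The members measured in both lines had miR-891b minus NC1 differences of opposite sign in 5 of 7 cases. The share of all genes with opposite signs was not computed, so this count cannot be read as a trait of the members. Of all genes, 55.5% in HCT116 and 55.6% in A549 were below 0. The count was 4 of 7 under quantile normalization and 2 of 7 under normexp with quantile normalization. Each line has 1 array per group, so these differences between the lines were not tested. The A549 difference minus the HCT116 difference was -0.59 for GSR, whose other probe gave -0.64, and -0.56 for GSTP1, whose HCT116 difference of 0.0043 is within its spread over spots (SD 0.036, 5 spots above and 5 below 0). It was -0.41 for GPX1 and -0.27 for MGST1, whose signs were the same in both lines under quantile normalization with or without normexp. It was 0.38 for GPX8, whose other probe gave 0.0036.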

How the results depend on the processing

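The 6 members past 2-fold between the lines on the NC1 arrays numbered 5 to 6 in the other settings at 2-fold, 7 at 1.5-fold and 5 at 3-fold. In A549 the 2 members past 2-fold with miR-891b became 1 (GPX3) after normexp with quantile normalization and 1 at a 3-fold threshold. In HCT116 the count was 0 in each setting run. Genes called by limma for the line ranged from 5051 to 9381, against 7249. Those for miR-891b were 0, except for 6 with no filter on dim probes, none of them a member. Of the members' single values under other settings, 115 moved by less than the spot-level SD and 69 by more, and none past 2-fold changed sign. Some of the 115 could not move: within a line, removing the filter or the stray areas left every remaining value as it was. Averaging over probes did the same for genes with 1 probe, and the authors' values are close to the main values. Most values under quantile normalization, with or without normexp, moved by more than the spot-level SD. Without areas of stray signal GSTP1 and GSTM3 dropped out, since 1 and 3 of their 10 spots lay there.

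Over all genes, normexp with quantile normalization left 27 higher and 13 lower genes in HCT116 (221 and 161 otherwise), 346 and 416 in A549 (854 and 1189), and 1500 and 1617 between the lines (3380 and 4192). With no filter on dim probes the counts were 2788 and 1434, 2934 and 3081, and 5301 and 6539. The cause was not tested. No paired analysis was possible because the labels give no replicate numbers, apart from the pairing by line that the limma model already holds. Signals near background limit GPX2, GPX3 and GSTM3 in HCT116 to bounds, and the size of these bounds depends on the processing.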

Other observations

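Values of antioxidant enzymes that work beside the glutathione system are given here for the NC1 arrays, where 31.8% of all genes were past 2-fold in either direction. Of 17 thioredoxins, peroxiredoxins and glutaredoxins, 4 were past 2-fold (23.5%), 3 of them higher in A549: TXNIP (at least 14.7-fold), TXNRD1 (1.37 on the log2 scale) and SRXN1 (1.11). The SRXN1 probe lay in an area of stray signal on an array. PRDX2 was at least 201-fold higher in HCT116 by its probe. That probe was not well above background in A549, and its spot lay in an area of stray signal on an array. SOD1 (-1.01) and SOD2 (-1.42), which turn superoxide into hydrogen peroxide, were past 2-fold lower in A549. With miR-891b, 0 of the 16 measured thioredoxin-related genes and 0 of the 3 measured dismutases and catalase were past 2-fold in either line. Of 9 genes of lipid peroxidation and ferroptosis, 2 were past 2-fold (22.2%): FTL, the ferritin light chain, was higher in A549 (2.39) and GCH1 was lower (-2.05), and 0 were past 2-fold with miR-891b. Of all genes, 2.0% in HCT116 and 9.58% in A549 were past 2-fold with miR-891b, so counts of 0 in lists this small say little.

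GPX2 had the largest bound on a difference between the lines among the members. The genes whose centred levels over the 4 arrays lay nearest to it among 22714, by Euclidean distance on the log2 scale, were GNG11 (0.46), SCCPDH (0.65) and NNMT (0.84). They were chosen for this likeness, and the HCT116 values of GPX2 that enter the distance are not well above background.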
